A study of Homo sapiens with 9 samples.

Results

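The endoplasmic reticulum (ER) genes described here are 34 genes for chaperones, secretion and the unfolded protein response, taken by symbol from the 60656 genes of the count table. The rule uses no measured value, although the list was drawn up with earlier results of these data known. They fall into 6 roles: 9 ER chaperones and co-chaperones, 6 lectin chaperones and disulfide isomerases, 5 genes of ER-associated degradation, 3 stress sensors, 10 genes of the translocon and signal peptidase, and 1 retrieval receptor. They were measured by RNA sequencing in RIVA, an established line of the activated B-cell-like (ABC) subtype of diffuse large B-cell lymphoma (DLBCL). RIVA was transduced with a pLVX-TetOne construct, a lentiviral vector in which doxycycline switches on the insert. The 3 groups of 3 replicates carried no insert (vector, with endogenous wild-type BCL10), BCL10 S136X, a truncation of the C-terminal part, or BCL10 R58Q, a missense change in the CARD domain. BCL10 is an adaptor protein that acts with MALT1 upstream of NF-kB. All 3 groups received doxycycline at 200 ng/mL for 24 h, so the vector libraries carry the drug too. The labels also list the dose with another unit, ng/µL, for the same samples. Each construct sat in its own transduced RIVA cells. Repeat transductions of a construct are not stated, so construct and population cannot be told apart. Induced wild-type BCL10 was not analysed here.

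Secretory and membrane proteins enter the ER through the SEC61 channel, lose their signal peptide to signal peptidase, and fold with the help of BiP (HSPA5), GRP94 (HSP90B1), calnexin, calreticulin and the protein disulfide isomerases. Chaperones that drift to the Golgi are brought back by KDEL receptors, and proteins that cannot fold are sent to the cytosol for degradation. When unfolded proteins build up, the sensors IRE1 (ERN1), ATF6 and PERK (EIF2AK3) start the unfolded protein response. IRE1 splices the mRNA of XBP1, ATF6 is cut into a transcription factor, and PERK phosphorylates eIF2alpha. B cells expand the same machinery as they become antibody-secreting plasma cells. Among the cell-of-origin subtypes of DLBCL, ABC is the one whose expression is nearest to that step.

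ATF6 and spliced XBP1 act through the ER stress response element (ERSE: CCAAT, any 9 bases, then CCACG) and its variant ERSE-II (ATTGG, any 1 base, then CCACG). RefSeq promoters on GRCh38.p14, from 250 bases before to 50 after the annotated start, were given for 31 of the 34 genes. KDELR2, PDIA3 and SPCS1 had no entry. Both strands were searched. ERSE was found in 6 of the 31 genes (CALR, CANX, CRELD2, HSP90B1, HSPA5 and PDIA6), whereas 25 of all 27305 genes with an entry (0.0916%) hold it in any of their promoters (27 of 35116 promoters, 0.0769%). ERSE-II was found in 3 (HERPUD1, HYOU1 and SDF2L1), against 19 of all genes (0.0696%, or 0.0541% of promoters). The shorter CCACG, which is also the end of both elements, was in 25 of the 31 genes and in 42.1% of all genes (38.1% of promoters). The UPR element TGACGTGG, which holds CCACG on its other strand, was in 3 (HYOU1, SSR3 and SSR4) and in 0.927% of all genes (0.729% of promoters). A match is a run of letters, and no binding was measured. The list was chosen to hold genes of this response, so its shares beside those of all genes are a description and no test.

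The 250 bases upstream of the start are printed for the genes with an element whose RNA rose in at least 1 mutant, for CRELD2, which has an element and did not pass a test, and for SEC11C, which has neither element and rose in both mutants. Each runs 5′ to 3′ along its gene's strand and ends at the base before the start, with both ends of each ERSE or ERSE-II in capitals.
HSPA5, chr9:125241344-125241593, minus strand: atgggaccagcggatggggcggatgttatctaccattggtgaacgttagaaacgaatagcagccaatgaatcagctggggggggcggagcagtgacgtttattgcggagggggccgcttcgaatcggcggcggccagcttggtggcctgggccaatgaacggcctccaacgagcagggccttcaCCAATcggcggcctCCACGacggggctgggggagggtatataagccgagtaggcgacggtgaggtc
PDIA6, chr2:10812786-10813035, minus strand: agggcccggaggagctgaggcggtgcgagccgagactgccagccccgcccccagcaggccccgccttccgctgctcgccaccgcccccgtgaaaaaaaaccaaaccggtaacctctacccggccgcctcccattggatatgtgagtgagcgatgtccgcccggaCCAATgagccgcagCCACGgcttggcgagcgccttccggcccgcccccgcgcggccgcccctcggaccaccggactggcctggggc
HERPUD1, chr16:56931892-56932141, plus strand: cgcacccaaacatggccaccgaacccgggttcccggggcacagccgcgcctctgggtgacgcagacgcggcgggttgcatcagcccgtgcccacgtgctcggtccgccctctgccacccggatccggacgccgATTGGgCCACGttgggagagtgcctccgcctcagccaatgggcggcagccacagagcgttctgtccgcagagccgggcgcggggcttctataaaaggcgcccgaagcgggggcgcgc
HYOU1, chr11:119057206-119057455, minus strand: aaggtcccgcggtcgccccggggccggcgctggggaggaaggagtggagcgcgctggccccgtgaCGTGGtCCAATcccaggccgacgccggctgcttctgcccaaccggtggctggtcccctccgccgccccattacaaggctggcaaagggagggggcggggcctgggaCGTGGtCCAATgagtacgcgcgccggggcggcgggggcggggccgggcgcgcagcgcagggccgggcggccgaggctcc
SDF2L1, chr22:21642052-21642301, plus strand: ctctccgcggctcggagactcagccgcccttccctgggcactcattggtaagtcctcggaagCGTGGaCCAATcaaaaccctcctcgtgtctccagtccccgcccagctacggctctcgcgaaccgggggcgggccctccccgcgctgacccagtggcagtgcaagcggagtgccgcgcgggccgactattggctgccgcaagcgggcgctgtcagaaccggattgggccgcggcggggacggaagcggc
CRELD2, chr22:49918384-49918633, plus strand: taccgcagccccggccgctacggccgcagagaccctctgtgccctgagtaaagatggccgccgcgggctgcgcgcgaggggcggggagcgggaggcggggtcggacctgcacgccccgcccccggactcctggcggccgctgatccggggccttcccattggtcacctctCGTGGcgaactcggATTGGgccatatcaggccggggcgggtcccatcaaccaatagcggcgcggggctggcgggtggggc
SEC11C, chr18:59139634-59139883, plus strand: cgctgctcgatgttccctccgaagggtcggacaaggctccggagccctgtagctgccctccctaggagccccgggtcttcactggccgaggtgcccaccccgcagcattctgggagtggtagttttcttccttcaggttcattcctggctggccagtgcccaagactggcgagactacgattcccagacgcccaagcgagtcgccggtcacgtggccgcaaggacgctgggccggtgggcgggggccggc
The HSPA5 element lies 66 to 48 bases before the start, that of PDIA6 86 to 68 bases and that of HERPUD1 117 to 107 bases. HYOU1 has an element on the opposite strand at 185 to 175 bases and another at 79 to 69 bases, and the UPR element overlaps the farther of them. PDIA6 has a second annotated start, whose promoter holds neither element.

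**Figure D1:**
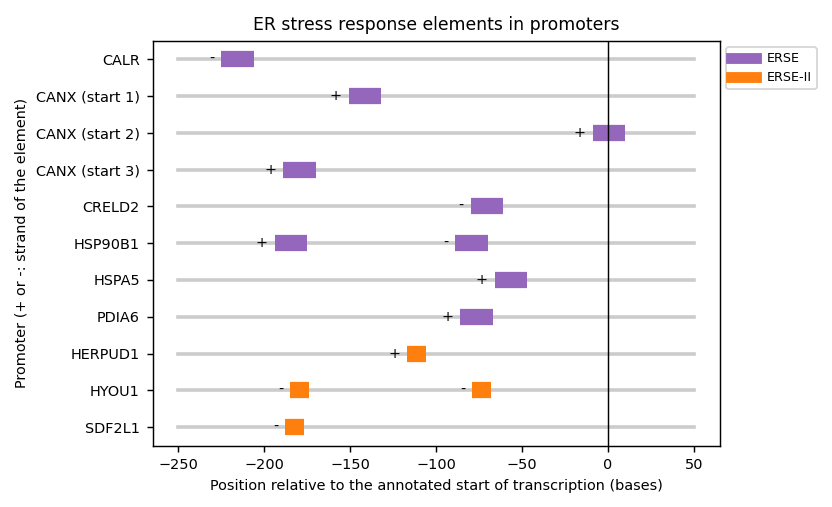
Position of each ERSE (purple) and ERSE-II (orange) relative to the annotated start of transcription, in bases. Grey lines are promoters, 250 bases before to 50 after the start, of the 9 described ER genes that hold an element. CANX has 3 annotated starts whose overlapping windows hold the same ERSE, drawn once for each start. HSP90B1 and HYOU1 have 2 elements each. The sign beside each element is its strand relative to the gene.

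Libraries held 28047713 to 33122267 counts, and all 34 genes passed the filter on low counts in every comparison, so none was lost. Levels are library-size scaled counts (CPM) with TMM factors. BCL10 served as the check of the labels: its CPM was 26.2, 38.7 and 27.5 in vector, 488, 409 and 345 in S136X and 357, 338 and 309 in R58Q, where reads of the transgene and of the endogenous gene cannot be told apart. The 8 B-cell markers summed to 3560 to 4584 CPM over the 9 libraries, the 6 T-cell markers to 5.49 to 15 CPM and the 6 myeloid markers to 0.307 to 0.62 CPM (9 to 20 counts). The column names of the R58Q libraries carry 1 date and those of the other libraries an earlier one, so R58Q and that date cannot be told apart.

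A vector library stood apart for these genes. Vector replicate 1 was the highest of the 3 vector libraries for 27 of the 34 genes (79.4%), compared with 37.4% of all genes tested. The same held for R58Q replicate 1, the highest R58Q library for 23 of the 34 (67.6%, compared with 37.9% of all genes), while S136X replicate 3 was the highest S136X library for none of them. The highest vector library exceeded the lowest by 1.54-fold for SDF2L1 and PDIA4, 1.52-fold for HSP90B1 and 1.45-fold for HSPA5. ERN1 and HERPUD1 differed by 1.07-fold over the same libraries. XBP1 was also highest in vector replicate 1, at 132, 78.9 and 73.3 CPM in vector replicates 1, 2 and 3. Counts below are therefore also given without vector replicate 1, and from a fit blocked on replicate number, which compares libraries of the same number. The sample titles give that number and state no pairing.

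**Figure D2:**
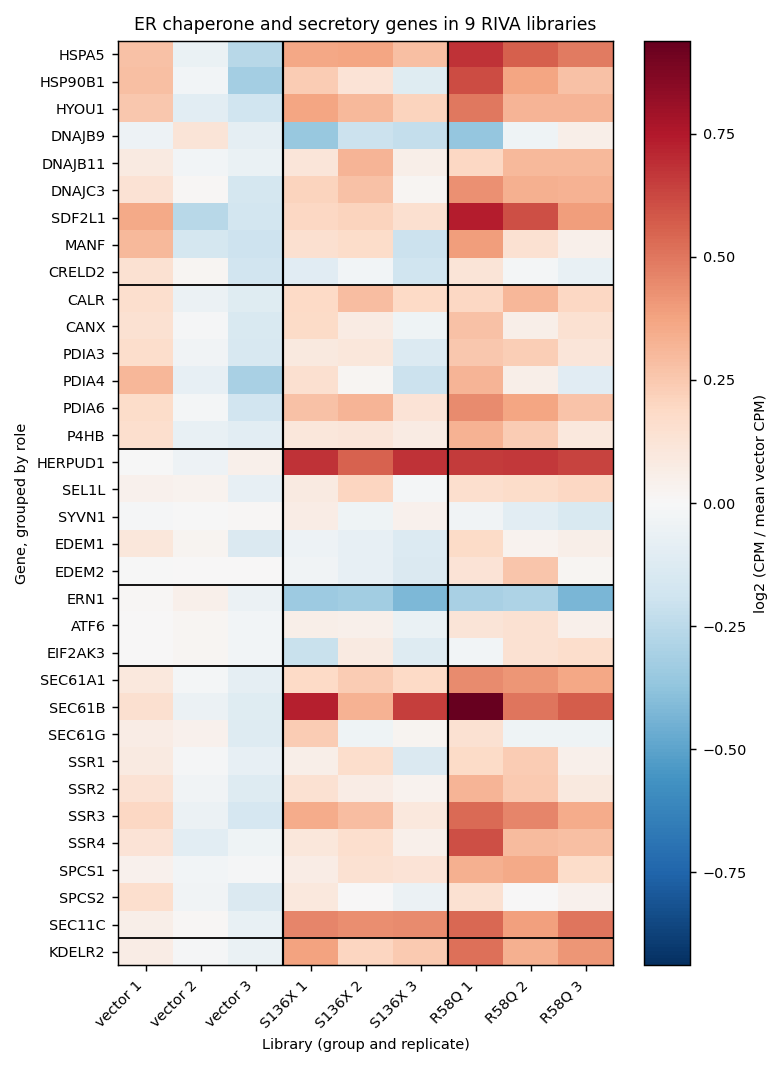
Level of each of the 34 genes (rows, grouped by role and separated by horizontal lines) in each of the 9 libraries (columns), as log2 of CPM over the mean vector CPM. Vector replicate 1 is redder than the other vector libraries for most chaperones, HERPUD1 and SEC11C are red in all 6 mutant libraries, and ERN1 is blue in them.

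Per kilobase of transcript, CALR was the most abundant of the 34 genes in vector cells at 457 CPM per kb, ahead of SEC61B (209.7), CANX (163) and HSP90B1 (151). HSPA5 (123 CPM per kb) and SEC11C (121) came close to each other. The sensors were scarce, with ATF6 at 7.02, EIF2AK3 at 5.93 and ERN1 at 3.65 CPM per kb, and DNAJB9, a BiP co-chaperone that represses IRE1, stood at 3.76. Summed over the 34 genes, the level was 6632 CPM ± 692 (SD, n = 3) in vector, 7526 ± 312 in S136X and 8156 ± 431 in R58Q. The vector libraries ranged from 6029 to 7388 and the S136X libraries from 7174 to 7770, so that they overlapped. R58Q libraries ranged from 7778 to 8625 and overlapped neither of the other groups.

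In S136X cells, compared with vector, HERPUD1, SEC61B, SEC11C and KDELR2 rose and ERN1 fell, while the remaining 29 genes, with every BiP-type chaperone and disulfide isomerase among them, did not pass at an adjusted p under 0.05. The 4 that rose were 11.8% of the 34 genes, compared with 6.03% of all 15530 genes tested, and the 1 that fell was 2.94%, compared with 4.10%. At least 1.5-fold was reached by HERPUD1 alone, against 2.05% of all genes. In bulk RNA, a change in the share of cells that express a gene and a change in the RNA per cell cannot be told apart. The median log2 fold change was 0.093 over the 34 genes and -0.02 over all genes. Groups did not overlap for 8 genes higher in S136X (against 16.0% of all genes) and for 3 that were lower, namely ERN1, DNAJB9 and EDEM2 (against 2387 of the 15530 genes).

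In R58Q cells, compared with the same vector libraries, 14 of the 34 genes rose, 41.2%, compared with 12.3% of all 15435 genes tested, and again ERN1 alone fell (2.94%, against 8.76% of all genes). The 14 were 5 chaperones and co-chaperones (HSPA5, HYOU1, DNAJB11, DNAJC3 and SDF2L1), PDIA6, HERPUD1, 6 genes of the translocon and signal peptidase (SEC61A1, SEC61B, SSR3, SSR4, SPCS1 and SEC11C) and KDELR2. The median log2 fold change was 0.36 over the 9 chaperones and co-chaperones, 0.34 over the 10 genes of the translocon and signal peptidase and 0.21 over the 6 lectin chaperones and isomerases, compared with 0.17, 0.11 and 0.089 in S136X. HERPUD1 and SEC61B reached 1.5-fold (4.09% of all genes did so upward). The median log2 fold change was 0.22, against -0.028 over all genes, and 31 of the 34 fitted values were above 0 (against 7169 of the 15435 genes). All 3 R58Q libraries were above all vector libraries for 18 genes (against 21.1% of all genes) and below them for ERN1 and SYVN1 (against 2966 of the 15435 genes). With upper-quartile scaling, 9 of the 34 rose and 1 fell, while the split over all genes turned from 1891 higher and 1352 lower to 1352 higher and 2003 lower. With total counts alone it was 1416 and 1869. In S136X the corresponding splits over all genes were 937 higher and 637 lower with TMM, 734 and 814 with the upper quartile and 690 and 930 with total counts, and 3 of the 34 genes rose under either of the other scalings.

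The counts depended on which libraries were used and on the block. Blocking on replicate number, 11 genes rose and 1 fell in S136X (12.9% of all genes rose) and 22 rose and 1 fell in R58Q (18.2% of all genes). In S136X the block added CALR and the 6 genes HSPA5, HYOU1, DNAJC3, PDIA6, SEC61A1 and SSR3, and in R58Q it added CALR, HSP90B1, MANF, P4HB, PDIA3, SEL1L, SSR1 and SSR2. Without vector replicate 1, 11 rose and 1 fell in S136X (5.78% of all genes rose) and 20 rose and 1 fell in R58Q (11.6%). Without vector replicate 2, 2 genes (HERPUD1 and SEC11C) rose in S136X, where the share of all genes fell to 2.07%, and 5 (HERPUD1, KDELR2, SEC11C, SEC61A1 and SEC61B) in R58Q, where it fell to 5.47%. Without vector replicate 3, 3 rose in S136X (3.61% of all genes), and 8 rose and 1 fell in R58Q (6.82% of all genes rose). Without S136X replicate 3, 2 rose in S136X (3.24% of all genes). HERPUD1 and SEC11C passed in both mutants, and SEC61A1, SEC61B and KDELR2 in R58Q, whichever single library was left out.

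**Figure D3:**
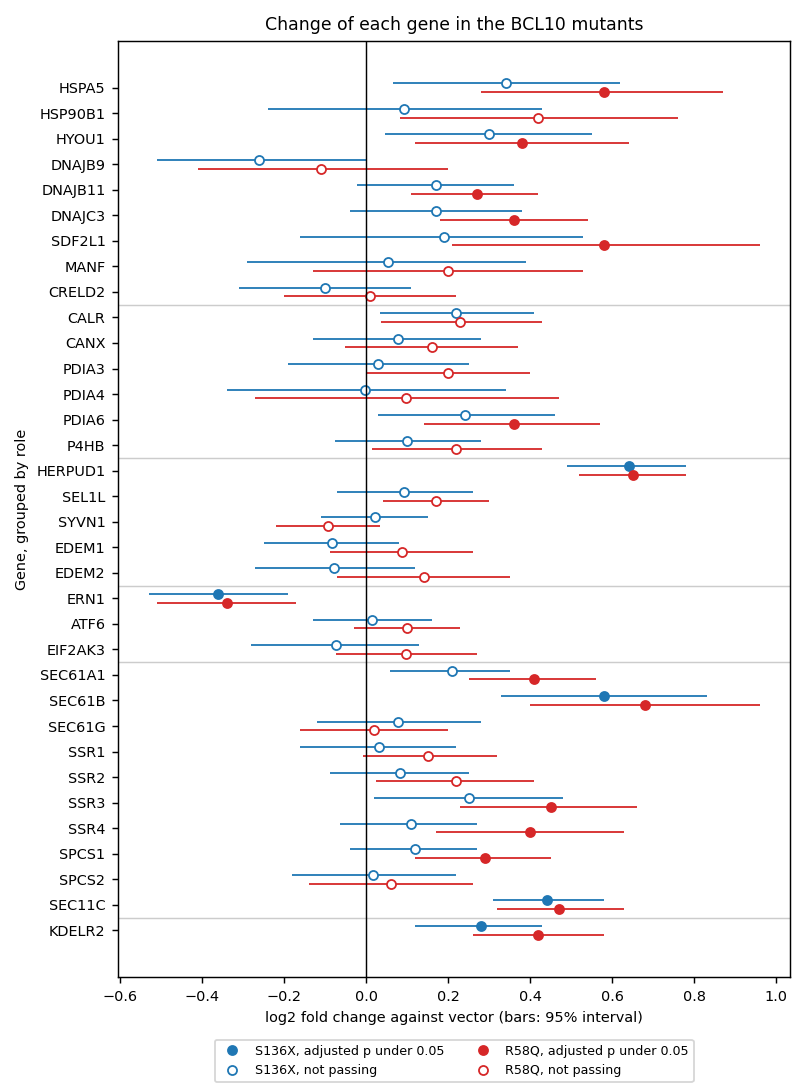
Log2 fold change of each of the 34 genes against vector in S136X (blue) and R58Q (red), with 95% intervals from the quasi-likelihood fit; filled points passed an adjusted p under 0.05. ERN1 lies below 0 in both mutants, HERPUD1, SEC61B, SEC11C and KDELR2 lie above 0 in both, and most chaperones lie above 0 with wide intervals. Both mutants are compared with the same 3 vector libraries.

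HERPUD1, at chr16:56932142-56944864, encodes a membrane protein of the degradation complex and a classical target of the unfolded protein response. It stood at 270.2, 262 and 281 CPM in vector, 434, 398 and 434 in S136X and 427, 430.2 and 419.8 in R58Q. Every mutant library was above every vector library, and the 2 mutants overlapped. The log2 fold change was 0.64 (SE 0.0635, edgeR adjusted p = 0.000879) in S136X and 0.65 (SE 0.0566, adjusted p = 0.000282) in R58Q. Its partners did not pass in the main fit, edgeR without the block. SEL1L, the scaffold of the degradation complex, gave 0.093 (S136X) and 0.17 (R58Q) on that scale (edgeR adjusted p = 0.454 and 0.064), and with the block it passed in R58Q (adjusted p = 0.035, and 0.035 to 0.198 over all alternatives). It also passed in R58Q, unblocked, with at least 10 counts required in every library. SYVN1, the ubiquitin ligase of that complex, had 0.021 and -0.094, and its R58Q libraries (305, 291 and 283 CPM) were all below the vector libraries (309.9, 312 and 315). EDEM1 and EDEM2, which help select misfolded glycoproteins, did not pass in either mutant, with values between -0.083 and 0.14.

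ERN1, at chr17:64039142-64130819, encodes the kinase and RNase IRE1. It read 29, 29.7 and 27.7 CPM in vector, 22.7, 23.0 and 21.5 in S136X and 23.3, 23.6 and 21.4 in R58Q. All 6 mutant libraries were below all vector libraries. It fell by 0.36 on the log2 scale in S136X (SE 0.0743, edgeR adjusted p = 0.0192) and by 0.34 in R58Q (SE 0.074, adjusted p = 0.0153). The call was lost in S136X without vector replicate 2, vector replicate 3 or S136X replicate 3 and in R58Q without vector replicate 2 or R58Q replicate 3, with adjusted p up to 0.0973 and 0.0725 over all alternatives. ATF6 read 52.8, 53.3 and 51.8 CPM in vector, 54.7, 54.3 and 50.4 in S136X and 57.2, 58 and 54.3 in R58Q, and did not pass (log2 fold change 0.014 and 0.10). EIF2AK3 read 27.7, 27.9 and 27.1 CPM in vector, 23.8, 29.3 and 25.4 in S136X and 27.1, 30.5 and 30.9 in R58Q, and did not pass either (-0.073 and 0.097). DNAJB9, a target of spliced XBP1, had the lowest value of the chaperones in both mutants, -0.26 in S136X (edgeR adjusted p = 0.186) and -0.11 in R58Q. These are transcript levels; the cleavage of ATF6, the phosphorylation of the kinases and XBP1 splicing were not measured.

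The SEC61 channel is built of SEC61A1, SEC61B and SEC61G. SEC61B passed in both mutants, SEC61A1 in R58Q and SEC61G in neither. SEC61B, at chr9:99222064-99230615, read 137, 119 and 114 CPM in vector, 204, 155 and 193 in S136X and 236, 174 and 183 in R58Q. Its mutant libraries were above all vector libraries but spread widely, and replicate 2 was the lowest of both mutants. The log2 fold change was 0.58 in S136X (SE 0.111, edgeR adjusted p = 0.015) and 0.68 in R58Q (SE 0.121, adjusted p = 0.0073). The S136X call was lost without vector replicate 2 or S136X replicate 3. SEC61A1, the pore itself, read 323, 299 and 285 CPM in vector, 344, 357 and 344 in S136X and 410.2, 403 and 389 in R58Q. The 3 groups did not overlap, and the log2 fold change was 0.41 in R58Q (SE 0.0659, edgeR adjusted p = 0.00504). In S136X it was 0.21 and did not pass (adjusted p = 0.0818, 0.0165 with the block, and 0.0165 to 0.243 over all alternatives). SEC61A1 also passed in S136X in DESeq2, in the fit on all 9 libraries and without vector replicate 1. SEC61G gave 0.078 in S136X and 0.020 in R58Q, with 95% intervals of -0.12 to 0.28 and -0.16 to 0.20.

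The translocon-associated proteins SSR1 to SSR4 assist the channel. SSR3 read 95.2, 80.4 and 74.6 CPM in vector, 106, 102 and 89.1 in S136X and 121, 115 and 106 in R58Q, so that S136X overlapped vector and R58Q did not. It rose in R58Q (log2 fold change 0.45, SE 0.095, edgeR adjusted p = 0.0143), and gave 0.25 in S136X (adjusted p = 0.157, 0.00739 with the block, and 0.00739 to 0.37 over all alternatives). The R58Q call was lost without vector replicate 2. SSR4 read 71.8, 61.2 and 63.8 CPM in vector, 70.7, 73.3 and 67.7 in S136X and 99.7, 80.5 and 79.7 in R58Q, of which replicate 1 was the highest. It rose in R58Q by 0.40 on the log2 scale (SE 0.101, edgeR adjusted p = 0.027), a call lost without vector replicate 2 or 3. SSR1 and SSR2 gave 0.15 and 0.22 in R58Q and passed there with the block (adjusted p = 0.0456 and 0.00834, with upper ends of 0.371 and 0.281 over all alternatives) and, for SSR2, without vector replicate 1.

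SEC11C, at chr18:59139866-59158832, encodes a catalytic subunit of signal peptidase. It read 235 to 257 CPM in the vector libraries, 339, 335 and 336 in S136X and 359, 323 and 351 in R58Q. Mutant and vector libraries did not overlap, and the log2 fold change was 0.44 in S136X (SE 0.0588, edgeR adjusted p = 0.00334) and 0.47 in R58Q (SE 0.0662, adjusted p = 0.00263). SPCS1, a small subunit of the same enzyme, read 29.2, 27.8 and 28.1 CPM in vector, 29.8, 31.4 and 31 in S136X and 35.8, 36.3 and 31.9 in R58Q. It rose in R58Q (0.29, SE 0.0734, edgeR adjusted p = 0.0279), and the call was lost under 4 of 6 single libraries left out, under both other scalings and without replicate 1 of both groups. Of the 31-base words of its longest transcript, 71.9% also occur in other genes. NEK4, a gene on the opposite strand with 36.1 CPM, shared the most of them. GLT8D1 also overlaps SPCS1 exons on that strand. Counting by strand is not stated, so reads of SPCS1 may not be separable from those of NEK4 and GLT8D1. SPCS2 gave 0.017 and 0.060 and did not pass.

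KDELR2, at chr7:6445953-6484190, encodes a receptor that returns chaperones from the Golgi. It read 64.9, 61.4 and 59.1 CPM in vector, 80.2, 71.2 and 73.3 in S136X and 88.5, 77.7 and 82.2 in R58Q. The mutants did not overlap vector, and overlapped each other. It rose by 0.28 in S136X (SE 0.0693, edgeR adjusted p = 0.039) and by 0.42 in R58Q (SE 0.0688, adjusted p = 0.00518) on the log2 scale. The S136X call was lost under 4 of the 6 single libraries left out and under upper-quartile and total-count scaling, and its adjusted p reached at most 0.139 over all alternatives. A DAGLB transcript overlaps an exon of KDELR2 on the same strand.

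**Figure D4:**
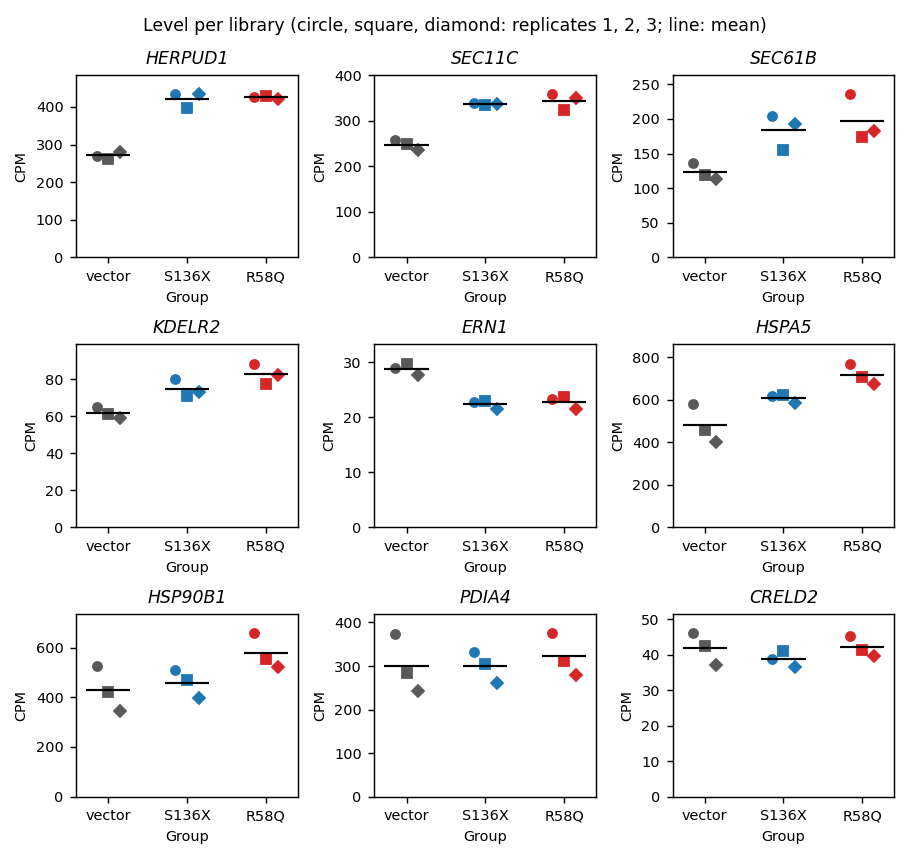
CPM of 9 of the genes in each library, with vector in grey, S136X in blue and R58Q in red, symbols for the replicate number and a line for the mean of 3. HERPUD1 and SEC11C separate mutants from vector with little spread, whereas HSPA5, HSP90B1 and PDIA4 are spread more widely, with replicate 1 the highest vector library.

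Among the chaperones, HSPA5 encodes BiP, the Hsp70 of the ER. It read 580.2, 459 and 401 CPM in vector, 618, 621 and 584 in S136X and 769, 708 and 674 in R58Q. The 3 groups did not overlap, although vector replicate 1 lay just under the lowest S136X library. It rose in R58Q by 0.58 on the log2 scale (SE 0.128, edgeR adjusted p = 0.0166), a call lost without vector replicate 2 (adjusted p = 0.0788). In S136X it gave 0.34 and did not pass (SE 0.121, adjusted p = 0.113), while the block gave an adjusted p of 0.00792 and the alternatives 0.00576 to 0.307. HSPA5 also passed in S136X in DESeq2, with the filter dropped and without vector replicate 1.

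SDF2L1, a component of the BiP cycle that binds to its J-proteins, read 29, 18.9 and 20.1 CPM in vector, 26.0, 26.2 and 25.1 in S136X and 37.8, 34.4 and 29.8 in R58Q. Vector replicate 1 was above all S136X libraries and below all R58Q libraries. Its log2 fold change in R58Q was 0.58 (SE 0.164, edgeR adjusted p = 0.0387) and the call was lost when any 1 library other than vector replicate 1 was left out, and with upper-quartile scaling. HYOU1, the ER Hsp110 that exchanges nucleotide on BiP, read 349, 273 and 257 CPM in vector, 378, 362 and 339 in S136X and 414, 366 and 365 in R58Q. It passed narrowly in R58Q (0.38, SE 0.115, edgeR adjusted p = 0.0495), was lost under the same 5 omissions and both other scalings, and gave 0.30 in S136X (adjusted p = 0.128). HYOU1 passed in S136X with the block, with the filter dropped and without vector replicate 1.

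DNAJC3, which brings substrates to BiP and inhibits PERK, read 94.1, 86.6 and 76.6 CPM in vector, 99.3, 104 and 86.7 in S136X and 115, 108 and 107 in R58Q. R58Q overlapped neither of the other groups, and the gene rose in R58Q by 0.36 (SE 0.0805, edgeR adjusted p = 0.0171), a call lost without vector replicate 2. DNAJB11, a J-protein partner of BiP, read 53.1, 49.0 and 47.9 CPM in vector, 54.0, 62.4 and 52.0 in S136X and 57.2, 61.7 and 61.6 in R58Q, and rose in R58Q by 0.27 (SE 0.0658, adjusted p = 0.0248). That call was lost under 4 of the 6 omissions and both other scalings. MANF gave 0.20 and CRELD2 0.0098 in R58Q, and neither passed there, except MANF with the block (adjusted p = 0.0312) and without vector replicate 1.

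HSP90B1, the ER Hsp90, read 525, 423 and 346 CPM in vector, 509.6, 472 and 399 in S136X and 659, 557 and 522 in R58Q. Replicate 1 was the highest library and replicate 3 the lowest in each group. The unblocked fit gave 0.093 (S136X) and 0.42 (R58Q), with edgeR adjusted p of 0.732 and 0.0772. With the block R58Q passed at an adjusted p of 0.000761 (0.000761 to 0.204 over all alternatives), while S136X did not pass with the block (0.20). R58Q also passed without vector replicate 1, in DESeq2 and with the filter dropped.

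Of the disulfide isomerases and lectin chaperones only PDIA6 passed in the main fit, edgeR without the block. It read 322, 282 and 252 CPM in vector, 345, 356 and 312 in S136X and 387, 368 and 343 in R58Q, with a log2 fold change of 0.36 in R58Q (SE 0.0938, edgeR adjusted p = 0.03), lost under 5 of 6 omissions and upper-quartile scaling. Of the words of the longest PDIA6 transcript, 36.8% also occur in other genes. ATP6V1C2, an overlapping gene on the opposite strand, shared the most of them and had 5.62 CPM. CALR gave 0.22 in S136X and 0.23 in R58Q, and all mutant libraries (987 to 1080 CPM) were above all vector libraries (801 to 967), yet it did not pass. With the block it did (adjusted p = 0.028 and 0.0272, with 0.0144 to 0.347 and 0.0211 to 0.262 over all alternatives), and without vector replicate 1 too. In R58Q CALR also passed in DESeq2 and with the filter dropped. PDIA3 and P4HB gave 0.20 and 0.22 in R58Q and passed with the block (adjusted p = 0.0188 and 0.00952, with upper ends of 0.365 and 0.31 over all alternatives) and without vector replicate 1. PDIA3 shares 43.3% of its words with other genes, most of all with the pseudogene PDIA3P1, which had 3.66 CPM. CANX and PDIA4 passed in neither mutant with or without the block, PDIA4 with -0.0037 in S136X and 0.098 in R58Q.

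The direct comparison of R58Q with S136X asked whether the mutants differed. None of the 34 genes passed in edgeR, where 0.533% of all 15195 genes did in either direction. At an unadjusted p under 0.05 there were 8, against 1668 of all genes. DESeq2 called 1 of the 34 (SDF2L1), and 214 higher and 104 lower of all genes, and limma-voom called none of the 34. The median log2 difference was 0.11 over the 34 genes and 0.0028 over all genes. Fitted differences were above 0 for 32 of the 34, against 7711 of the 15195 genes. R58Q and S136X libraries did not overlap for 10 genes, all higher in R58Q (against 9.46% of all genes). With the replicate block, 10 genes were higher in R58Q, and 7.84% of all genes were: DNAJC3, EDEM1, HSP90B1, HSPA5, KDELR2, PDIA3, SDF2L1, SEC61A1, SSR3 and SSR4.

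The largest difference among the 34 was in SDF2L1, 0.39 on the log2 scale (95% interval 0.18 to 0.60, edgeR adjusted p = 0.134, and 0.000249 with the block). HSP90B1 gave 0.32 (0.073 to 0.57, adjusted p = 0.312, and 2.46e-05 with the block), and SSR4 gave 0.29 (0.076 to 0.50, adjusted p = 0.279, and 0.00213 with the block). HSPA5 gave 0.23 (0.084 to 0.37, adjusted p = 0.191, and 0.00087 with the block). In every case the block gave the lowest adjusted p of the alternatives, and the highest was 0.469 for SDF2L1, 0.577 for HSP90B1, 0.65 for SSR4 and 0.589 for HSPA5. For the genes that rose or fell in both mutants the difference and its interval were KDELR2 0.14 (-0.026 to 0.30), HERPUD1 0.0030 (-0.13 to 0.13), SEC11C 0.023 (-0.11 to 0.16), ERN1 0.012 (-0.16 to 0.18) and SEC61B 0.093 (-0.22 to 0.41). BCL10 itself was 0.31 lower in R58Q on the log2 scale (95% interval -0.58 to -0.046) in the unblocked fit, which did not pass (adjusted p = 0.363), and passed with the block (adjusted p = 0.000189, and up to 0.675 over all alternatives). The part of transgene level and of the column date in these differences was not tested.

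Among the ER genes described here, 9 had an ERSE or ERSE-II. Their median log2 fold changes were 0.22 (S136X) and 0.38 (R58Q), and 1 and 5 of them rose. The other 22 genes with a promoter entry had medians of 0.066 and 0.16, with 2 rising and 1 falling in S136X and 7 rising and 1 falling in R58Q. Of all genes tested, 6.03% rose and 4.10% fell in S136X, and 12.3% rose and 8.76% fell in R58Q. Both classes thus held genes that rose and genes that did not. CRELD2 has an ERSE and gave -0.10 and 0.0098, while SEC11C and SEC61B have neither and rose in both mutants. Vector libraries differed by 1.54-fold for SDF2L1, 1.52-fold for HSP90B1, 1.45-fold for HSPA5 and 1.36-fold for HYOU1. For the rest of the 9 it was 1.07-fold to 1.27-fold. ERSE was also found in 3 of the 148 wider ER genes, followed below, with a promoter entry. Of these, XBP1 gave -0.11 (S136X) and 0.12 (R58Q) and did not pass. ERO1B fell by 0.59 in S136X and gave -0.22 in R58Q. Mean CPM of ALG12 was 19.5 in vector, 17.9 in S136X and 18.9 in R58Q.

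The wider pathway was followed in 172 further ER genes in 7 lists, of which 168 or 169 passed the filter. In S136X 8 rose (4.73%, against the 6.03% of all genes) and 4 fell (2.37%, against 4.10%). In R58Q 37 rose (22%, against 12.3%) and 8 fell (4.76%, against 8.76%). With the block these became 29 and 12 in S136X, where 12.9% of all genes rose and 1832 genes fell, and 61 and 15 in R58Q, where 18.2% rose and 2621 genes fell. Rising genes in R58Q were spread over eIF2alpha phosphatase and feedback (3 of 9), N-glycosylation (7 of 25), other degradation genes (6 of 24), targeting and translocation (6 of 27), ER to Golgi transport (8 of 38) and other chaperones and foldases (6 of 32, with 3 that fell). None of 169 passed between the mutants in edgeR (21 at an unadjusted p under 0.05, 4 in DESeq2 and none in limma-voom), and 29 higher and 6 lower did with the block. Of all 15195 genes, 1668 had an unadjusted edgeR p under 0.05. DESeq2 called 214 of them higher and 104 lower, and the block 1191 and 1020.

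**Figure D5:**
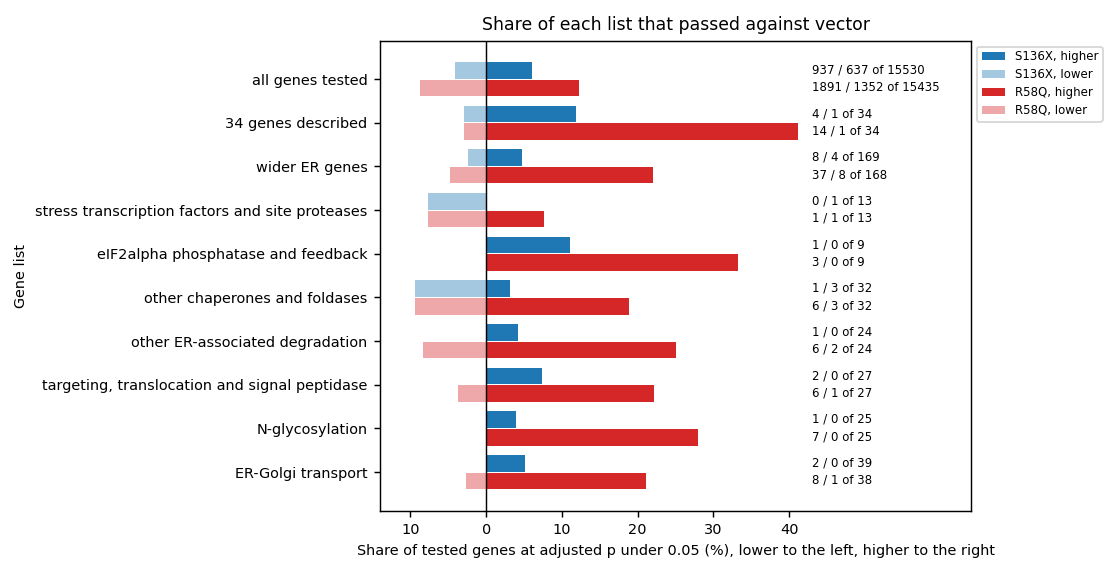
Share of tested genes in each list with an adjusted p under 0.05 against vector, with genes that rose to the right of 0 and genes that fell to the left, in percent, for S136X (blue) and R58Q (red). The numbers at the right are genes higher and lower out of those tested. The 34 genes stand at 41.2% higher in R58Q beside 12.3% of all genes, and at 11.8% beside 6.03% in S136X.

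Of the 13 transcription factors and site proteases tested, 1 fell in S136X (7.69%, against 4.10% of all genes). In R58Q 1 rose (7.69%, against 12.3%) and 1 fell (7.69%, against 8.76%). XBP1 read 96.3, 87.0 and 79.1 CPM in S136X and 120, 104 and 85.8 in R58Q beside the vector values above, and its log2 fold changes were -0.11 (SE 0.198) and 0.12 (SE 0.216), neither past the threshold. Between the mutants it was 0.22 higher in R58Q with the block (adjusted p = 0.00322, and up to 0.793 over all alternatives). ATF4, the factor translated when eIF2alpha is phosphorylated, rose narrowly in R58Q (0.24, SE 0.0735, edgeR adjusted p = 0.0475), and the call was lost under 5 of 6 omissions and both other scalings. DDIT3, the pro-apoptotic target CHOP, was scarce at 3.83 to 6.02 CPM and gave -0.022 and 0.045. CREB3L2, named after its values were seen, fell in both mutants, by 0.44 in S136X (edgeR adjusted p = 0.0186, lost without S136X replicate 3) and 0.56 in R58Q (adjusted p = 0.0047).

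PPP1R15A, the regulatory subunit GADD34 of a phosphatase that dephosphorylates eIF2alpha, had the largest change of the wider lists. It read 119, 119 and 130.2 CPM in vector, 235, 229 and 205 in S136X and 297, 252 and 270.1 in R58Q. No groups overlapped, and the log2 fold change was 0.86 in S136X (SE 0.0729, edgeR adjusted p = 0.000366) and 1.15 in R58Q (SE 0.0765, adjusted p = 7.52e-05). R58Q exceeded S136X by 0.28, which passed with the block (adjusted p = 0.000361) and not without it (0.193, and up to 0.47 over all alternatives). The rule for named genes added 3 others. TMED7, a cargo receptor of ER vesicles, rose in R58Q (0.60, SE 0.0845, edgeR adjusted p = 0.00266) and gave 0.12 in S136X. PDIA2 rose in R58Q (0.91, SE 0.249, adjusted p = 0.0356, lost under 5 of 6 omissions). ERO1B, an oxidase of the disulfide isomerases, fell by 0.59 in S136X (SE 0.12, adjusted p = 0.0182, lost under 2 of 6 omissions) and gave -0.22 in R58Q.

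Genes of antibody secretion were read beside the ER genes, since plasma cells combine both. IRF4, a transcription factor of ABC-DLBCL and plasma cells, rose by 0.67 (S136X) and 0.76 (R58Q) on the log2 scale (edgeR adjusted p = 0.00153 and 0.00157), and SLAMF7 by 2.5 and 3.03 (adjusted p = 0.000478 and 0.000139). CD27 fell by 0.95 and 0.70 and TNFRSF17, the receptor BCMA, by 0.86 and 0.54, with adjusted p between 0.00408 and 0.0138. The TNFRSF17 call in R58Q was lost under 2 of 6 omissions. CD38 fell in S136X by 0.48 (adjusted p = 0.0487), a call lost under 5 of 6 omissions, and gave -0.33 in R58Q (adjusted p = 0.0819). IGHM, the mu heavy chain, read 6851, 5808 and 5907 CPM in vector, 5661, 5266 and 4908 in S136X and 5049, 4820 and 4323 in R58Q. It fell in R58Q by 0.39 (SE 0.101, edgeR adjusted p = 0.0288), likewise lost under 5 of 6 omissions, and gave -0.23 in S136X. PRDM1, the factor Blimp-1 that drives plasma cell differentiation, stood at 4.74 to 8.19 CPM and did not pass (0.24 and -0.080), nor did SDC1, JCHAIN, IGKC, IGHD, IGLC2 or IGLC3. JCHAIN ranged from 0.376 to 8.91 CPM and was lowest in replicate 1 of all 3 groups.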

How the data were processed

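RIVA cells with vector, S136X or R58Q (3 libraries each) were sequenced as polyA-selected, single-end libraries on a NovaSeq instrument over 2 runs that were merged. The authors deposited whole-number read counts per gene, beside normalized counts that were not used. The submitters' processing notes name cutadapt, STAR, Picard and hg38, while the counting program and the strand setting are not given in the sources used here. Depth was 28047713 to 33122267 counts per library.

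Each comparison used the 6 libraries of its groups in R 4.3.3 with edgeR 4.0.16: filterByExpr (minimum count 10, minimum total 15), TMM, the quasi-likelihood F test, and Benjamini-Hochberg adjustment over all genes tested. A call is an adjusted p under 0.05. Standard errors are the log2 fold change over the root of F. The members and lists were chosen with earlier results of these data known. Genes named outside the 34 follow a rule: XBP1, ATF4 and DDIT3, up to 5 highest and 5 lowest of the wider lists past 1.5-fold, and an immunoglobulin and plasma-cell list. Replicate numbers come from the sample titles. Deviations from the group means correlated at 0.143 to 0.626 in all 9 same-number pairs (median 0.425). Pairs of different numbers gave -0.459 to 0.169 (median -0.251). Deviations from a mean of 3 sum to 0, which by itself pulls these below 0 where same-number pairs are above 0. The titles state no pairing, and the R58Q columns carry a later date than the others. The block treats the numbers as pairing the libraries, and its calls rest on that. The p-values measure the spread between these libraries, which may come from 1 transduced population per group. Alternatives were DESeq2 1.42.0, limma-voom (limma 3.58.1), upper-quartile and total-count scaling, a fit on all 9 libraries, the filter dropped or set to 10 counts in each library, the block, each replicate left out, thresholds of 0.01 and 0.1, and, added after the data were seen, replicate 1 of both groups left out. The procedures were tested on simulated data, in which DESeq2 called more unchanged genes than edgeR or limma-voom and failed a first limit on false calls, which was then applied to edgeR alone. Shared sequence was counted in 31-base words of GENCODE release 29 transcripts, as the share of a gene's words found in any other gene on either strand.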

Additional observations from a re-analysis of the deposited data

How the results depend on the processing

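No result that passed a test changed direction under any alternative. Where a number of genes moved by more than 1.5 times or a median by more than the spread between replicates, the cause was not tested. For S136X against vector, 5 of the 34 ER genes passed, and 12 with the replicate block, 12 with replicate 1 of both groups left out (an alternative added after the data were seen), 2 at an adjusted p under 0.01, and 2 to 12 with single libraries left out. Of all 15530 genes, 937 rose and 637 fell, and 2008 and 1832 with the block. Without replicate 1 of both groups it was 1146 and 709 of 15715. With single libraries left out, 2.07% to 5.78% of all genes rose. Shares of all genes at 0.01, at 0.1 and at 1.5-fold under the alternatives are not given here. The median log2 fold change of 0.093 ranged from 0.053 to 0.19 when a library was left out, highest without vector replicate 1. With 1.5-fold required, 1 gene passed, compared with 2 in DESeq2, 0 with total counts only, 2 with replicate 1 of both groups left out, and 1 to 2 with single libraries left out. For the wider ER genes 12 passed, compared with 19 in DESeq2, 41 with the block, 21 without replicate 1 of both groups, 1 at 0.01, 23 at 0.1, and 2 to 17 with single libraries left out.

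For R58Q against vector, 15 of the 34 passed, compared with 23 with the block, 5 at 0.01, and 5 to 21 with single libraries left out, and the median of 0.22 ranged from 0.17 to 0.32. Of all 15435 genes, 1891 rose and 1352 fell, and 2812 and 2621 with the block. With single libraries left out, 5.47% to 11.6% of all genes rose. With 1.5-fold required, 2 passed, compared with 4 in limma-voom, 1 with upper-quartile scaling, 4 with no filter, 4 with at least 10 counts in every library, 4 with the block, 4 without replicate 1 of both groups, and 1 to 5 with single libraries left out. For the wider genes 45 passed, compared with 76 with the block, 10 at 0.01 and 14 to 51 with single libraries left out. Between the mutants none of the 34 passed with any single library left out, with medians of 0.083 to 0.15. None passed with all libraries, compared with 1 in DESeq2 and 10 with the block. Of all 15195 genes, 53 were higher and 28 lower, compared with 214 and 104 in DESeq2 and 1191 and 1020 with the block. None of the wider genes passed in the main fit, compared with 4 in DESeq2, 1 with no filter, 1 with all 9 libraries in one fit and 35 with the block. Of the other named genes, the block also brought PDIA2, IGHM and IGLC2 (S136X) and CD38 and IGLC2 (R58Q) past the threshold against vector, and XBP1, PPP1R15A, PDIA2, ERO1B, TMED7, IGHM, PRDM1, CD38, TNFRSF17, SLAMF7, CD27 and BCL10 between the mutants. It changed no other call among the named genes. With 3 libraries a group, vector replicates that differed by up to 1.54-fold limit what the chaperones can show.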
